A study of Mus musculus with 10 samples.

Results

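Podocytes are the epithelial cells that wrap the capillaries of the kidney glomerulus, and the expression of 7 podocyte genes was compared between obstructed kidneys of DMM-treated and PBS-treated mice. The genes were Nphs1, Podxl, Wt1, Synpo, Ptpro, Magi2 and Plce1, taken by symbol as markers of the glomerular podocyte. Each symbol matched a single gene, which made up 7 of the 54532 genes with deposited counts. The kidneys came from male C57BL/6 mice of wild-type (WT) genotype, whose left ureter was tied off at the age of 8 weeks (UUO, unilateral ureteral obstruction), with death 14 days after surgery. DMM (dimethyl malonate), an inhibitor of succinate dehydrogenase, was given to 5 mice intraperitoneally at 40 mg/kg every other day, and 5 control mice were given PBS. RNA from the whole kidney of each mouse made up a library, so the 10 libraries are named control 1 to 5 and DMM 1 to 5. All 10 kidneys were obstructed, and unobstructed kidneys were not analysed here. Total counts lay between 15722527 and 19475833 per library, with a median of 17825223 in the control group and 16794390 in the DMM group. The lowest count of any of the 7 genes in any library was 246.

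The podocyte sends out foot processes that interlock with those of its neighbours, and the gap between them is bridged by the slit diaphragm, a zipper-like junction built on nephrin. Foot processes are held in shape by an actin cytoskeleton that is tied to the slit diaphragm and to the glomerular basement membrane, and a negatively charged surface coat keeps neighbouring processes apart. Mature podocytes hardly divide, and inherited loss of several of these proteins causes leakage of albumin into the urine and scarring of the glomerulus.

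The authors' weights set 2 libraries apart, and the counts another. The group means that the authors deposited are weighted sums of the counts in which control 3 and DMM 1 had a weight of 0, so that they rest on 8 libraries. In DMM 4, the library with the most counts, only 20029 genes had a count, against 22898 to 24083 in the other 9 libraries. Genes of the mitochondrial genome took 5.62% of its counts, against 1.97% to 3.66% in the control libraries and 2.30% to 4.39% in the other DMM libraries. Relative to the mean of all 10 libraries, the fifth of tested genes with the lowest transcript GC content was higher in DMM 4 by a median of 0.52 log2 units, while the median of the fifth with the highest GC content was -0.65. DMM 4 was the highest of the 10 libraries for 33.6% of the tested genes and the lowest for 35.7%. Results are therefore given over all 10 libraries, over 9 without DMM 4, over the 8 of the deposited means, and over the 7 that remain when DMM 4 is also left out.

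In whole obstructed kidneys, 0 of the 7 podocyte genes passed the test between DMM and control mice. Over all 10 libraries, 6 had a log2 fold change (DMM over control) above 0 and Nphs1 one below 0, and the 7 values lay between -0.10 for Nphs1 and 0.42 for Plce1. Their median was 0.10, beside 0.019 over the 16505 tested genes, and the median size of the difference regardless of sign was 0.098 for podocyte genes and 0.195 for tested genes. Calls needed both an adjusted p (Benjamini-Hochberg) under 0.05 and more than a 1.5-fold difference. By edgeR's quasi-likelihood test 0 of the 7 podocyte genes were called over 10 libraries, where 0% of all tested genes were called. At an unadjusted p under 0.05, 0 of 7 passed, against 10.9% of tested genes, and with the fold change rule added 0 of 7 passed, against 6.02%. DESeq2 called 0 of 7 over the same libraries, against 0.274% of the genes to which it gave an adjusted p. CPM values of the groups overlapped for 7 of the 7, and were apart for 1.95% of tested genes. The test of each gene is on the whole kidney, in which fewer podocytes and less RNA per podocyte cannot be told apart.

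The same count of calls was found with libraries left out. Over the 8 libraries of the deposited means, edgeR called 0 of 7 podocyte genes, against 6.3% of 16550 tested genes, and at an unadjusted p under 0.05 with the fold change rule 0 of 7 passed, against 13.7%. Groups did not overlap for 0 of 7 over these 8, against 20.1% of tested genes. Without DMM 4, edgeR called 0 of 7 and 0% of 16707 tested genes, and the groups were apart for 0 of 7 podocyte genes and 3.62% of tested genes. Without DMM 1 alone edgeR called 50 genes higher and 436 lower in DMM kidneys, 0 of the 7 among them, against 2.90% of tested genes in all. Over the 7 libraries, a set chosen after seeing the data, edgeR again called 0 of 7, against 14.3% of 16828 tested genes. Without a fold change minimum, 1 of 7 passed an adjusted p under 0.05 there, which was Podxl, against 28.1%. The 4 control and 3 DMM libraries of that set were apart for 2 of the 7, Podxl and Ptpro, against 37.2% of tested genes. The median log2 fold change of the 7 podocyte genes was 0.013 over the 8 libraries, 0.022 without DMM 4 and -0.13 over the 7 libraries, beside 0.021, 0.0020 and -0.011 for tested genes.

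**Figure D1:**
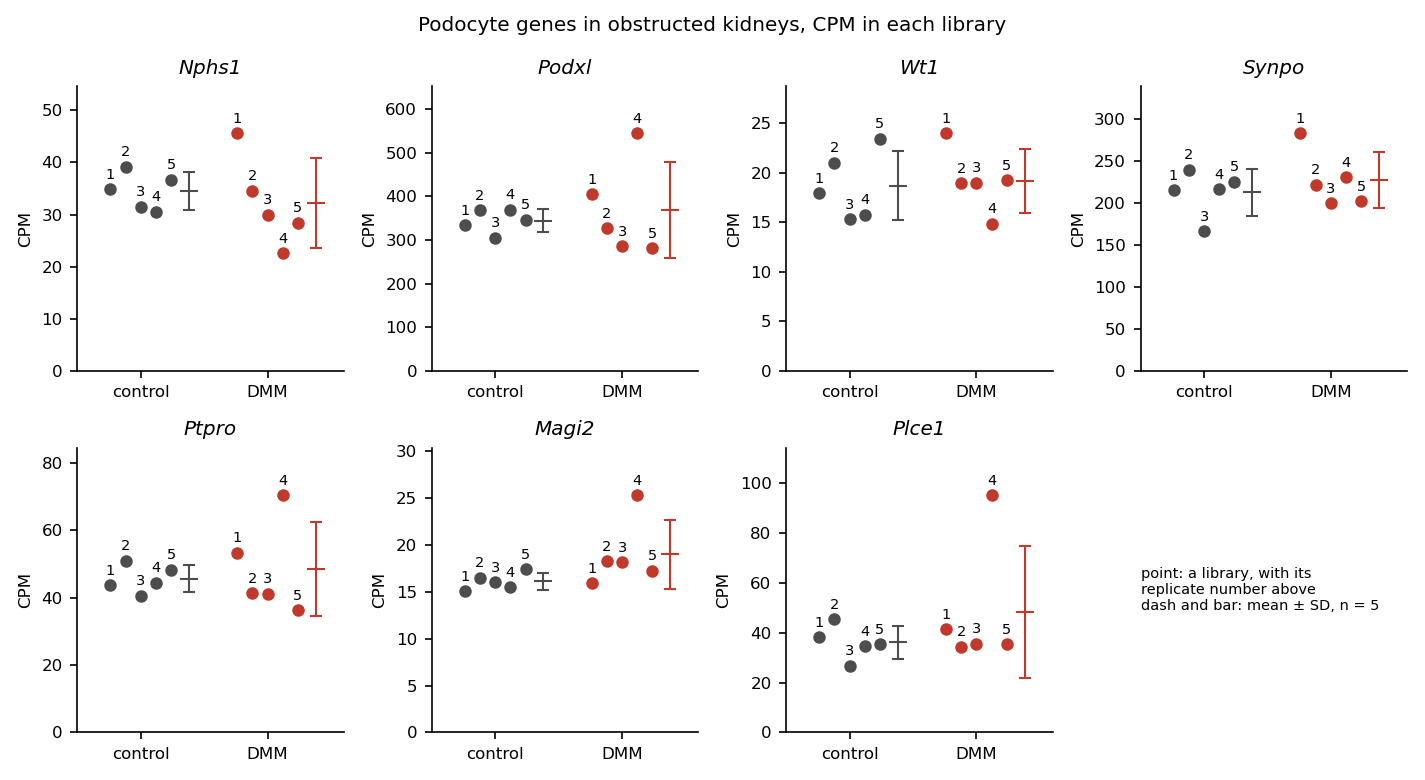
Normalised counts (CPM) of the 7 podocyte genes in each library, with the replicate number above each point and the group mean ± SD (n = 5) at its side. DMM 4 is the highest point for Podxl, Ptpro, Magi2 and Plce1 and the lowest for Nphs1 and Wt1, and the groups overlap in every panel.

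Nphs1 (ENSMUSG00000006649, chr7:30458315-30487223, plus strand, mm10) encodes nephrin, the adhesion protein whose extracellular domains span the slit diaphragm. Its normalised counts (CPM, scaled by TMM) were 34.9, 39.1, 31.5, 30.5 and 36.6 in control 1 to 5 and 45.5, 34.6, 30.0, 22.6 and 28.4 in DMM 1 to 5. DMM 1 was above all control libraries, DMM 3, 4 and 5 were below all of them, and DMM 2 was inside their range. Group means were 34.5 ± 3.57 and 32.2 ± 8.59 CPM (SD, n = 5), and the log2 fold change was -0.10 (SE 0.17, 95% interval -0.48 to 0.28, edgeR adjusted p = 0.827). Without DMM 4 the log2 fold change of Nphs1 was 0.0051 (edgeR adjusted p = 0.986). Over the 8 libraries, which lack DMM 1 and keep DMM 4, it was -0.29 (95% interval -0.63 to 0.052, edgeR adjusted p = 0.313).

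Magi2 (ENSMUSG00000040003, chr5:19227036-20704792, plus strand) encodes a scaffold protein with several PDZ domains that binds nephrin at the inner face of the slit diaphragm. It stood at 15.0, 16.5, 16.0, 15.5 and 17.4 CPM in control 1 to 5 and at 15.9, 18.3, 18.1, 25.3 and 17.3 CPM in DMM 1 to 5. DMM 2, 3 and 4 lay above all control libraries, while DMM 1 and DMM 5 lay inside the control range. The control libraries differed little among themselves, with a mean of 16.1 ± 0.919 CPM, and the DMM mean was 19.0 ± 3.66 CPM, or 17.4 ± 1.08 CPM without DMM 4. The log2 fold change was 0.24 (95% interval -0.062 to 0.54, edgeR adjusted p = 0.531), and 0.11 without DMM 4 (edgeR adjusted p = 0.437). Among the 7 podocyte genes, Magi2 alone kept a log2 fold change of the same sign in all 19 alternative settings, between 0.11 and 0.29, with edgeR or DESeq2 adjusted p between 0.257 and 0.761.

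Podxl (ENSMUSG00000025608, chr6:31519488-31563981, minus strand) encodes podocalyxin, the sialic acid-rich protein of the podocyte surface coat, and it is also made by vascular endothelium and mesothelium. It stood at 334, 369, 305, 369 and 347 CPM in control 1 to 5 and at 405, 328, 286, 544 and 281 CPM in DMM 1 to 5. DMM 4 and DMM 1 lay above every control library, while DMM 3 and DMM 5 lay below every control library. The means were 345 ± 26.7 CPM in control and 369 ± 109.9 CPM in DMM kidneys. Without DMM 4 the DMM mean was 325 ± 57.1 CPM, so that the SD was larger in the DMM group with and without that library. For Podxl the log2 fold change was 0.10 (95% interval -0.30 to 0.49, edgeR adjusted p = 0.837) over 10 libraries, -0.0065 when scaled by library size alone, and -0.085 without DMM 4 (edgeR adjusted p = 0.694). Over the 7 libraries, in which the highest DMM value was 328 CPM and the lowest control value 334 CPM, it was -0.25 (95% interval -0.42 to -0.080, edgeR adjusted p = 0.0357), a fold change below 1.5. Adjusted p for Podxl lay between 0.0357 and 0.991 over its 19 alternatives by edgeR and DESeq2.

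Ptpro (ENSMUSG00000030223, chr6:137252319-137463233, plus strand) encodes GLEPP1, a receptor tyrosine phosphatase of the podocyte's apical membrane. It stood at 43.7, 51.0, 40.6, 44.5 and 48.3 CPM in control 1 to 5 and at 53.4, 41.3, 41.2, 70.5 and 36.3 CPM in DMM 1 to 5. The order of libraries was much like that of Podxl, with DMM 4 and DMM 1 above all control libraries and DMM 5 below them. Its log2 fold change was 0.089 (95% interval -0.29 to 0.47, edgeR adjusted p = 0.843), -0.013 when scaled by library size alone, and -0.084 without DMM 4 (edgeR adjusted p = 0.697). Over the 7 libraries it was -0.24 (edgeR adjusted p = 0.0510), within a range of 0.0510 to 0.980 for adjusted p over 19 alternatives.

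Synpo (ENSMUSG00000043079, chr18:60593973-60660142, minus strand) encodes synaptopodin, an actin-binding protein of the foot process. It stood at 216, 239.8, 166, 217 and 226 CPM in control 1 to 5 and at 283, 222, 200.2, 231 and 203 CPM in DMM 1 to 5. Control 3 was the lowest and DMM 1 the highest library, and both are absent from the 8 libraries of the deposited means. DMM 4 lay inside the control range for Synpo, unlike for the other 6 genes. The group means were 213 ± 27.8 and 228 ± 33.6 CPM. For Synpo the log2 fold change was 0.10 over 10 libraries (95% interval -0.20 to 0.39, edgeR adjusted p = 0.778) and -0.070 over the 8 (edgeR adjusted p = 0.739).

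Plce1 (ENSMUSG00000024998, chr19:38481109-38785030, plus strand) encodes phospholipase C epsilon, a signalling enzyme needed for podocyte development. It stood at 38.3, 45.4, 26.8, 34.7 and 35.5 CPM in control 1 to 5 and at 41.4, 34.5, 35.6, 95.4 and 35.3 CPM in DMM 1 to 5. DMM 4 was 2.62 times the mean of the other 9 libraries, and the other 4 DMM libraries lay inside the control range. Group means of 36.1 ± 6.72 and 48.4 ± 26.4 CPM became 36.1 and 36.7 ± 3.18 CPM without DMM 4. The log2 fold change of 0.42 (SE 0.29, 95% interval -0.21 to 1.06, edgeR adjusted p = 0.570), the largest of the 7, was 0.022 without that library (95% interval -0.28 to 0.32, edgeR adjusted p = 0.939).

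Wt1 (ENSMUSG00000016458, chr2:105126529-105173616, plus strand) encodes a zinc finger transcription factor that keeps the podocyte's identity, and it is also made by parietal epithelial and mesothelial cells. It stood at 17.9, 21.0, 15.3, 15.8 and 23.4 CPM in control 1 to 5 and at 23.9, 18.9, 19.0, 14.9 and 19.2 CPM in DMM 1 to 5. The highest library, DMM 1, was close to control 5, and the lowest, DMM 4, was close to control 3 and control 4. Means were 18.7 ± 3.48 and 19.2 ± 3.22 CPM, with a log2 fold change of 0.039 (95% interval -0.32 to 0.39, edgeR adjusted p = 0.933), or -0.034 when scaled by library size alone. The sign was not stable, with -0.12 over the 8 libraries (edgeR adjusted p = 0.722) and 0.12 without DMM 4 (edgeR adjusted p = 0.658). It was -0.025 without control 3, -0.017 without control 4 and -0.055 without DMM 1.

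**Figure D2:**
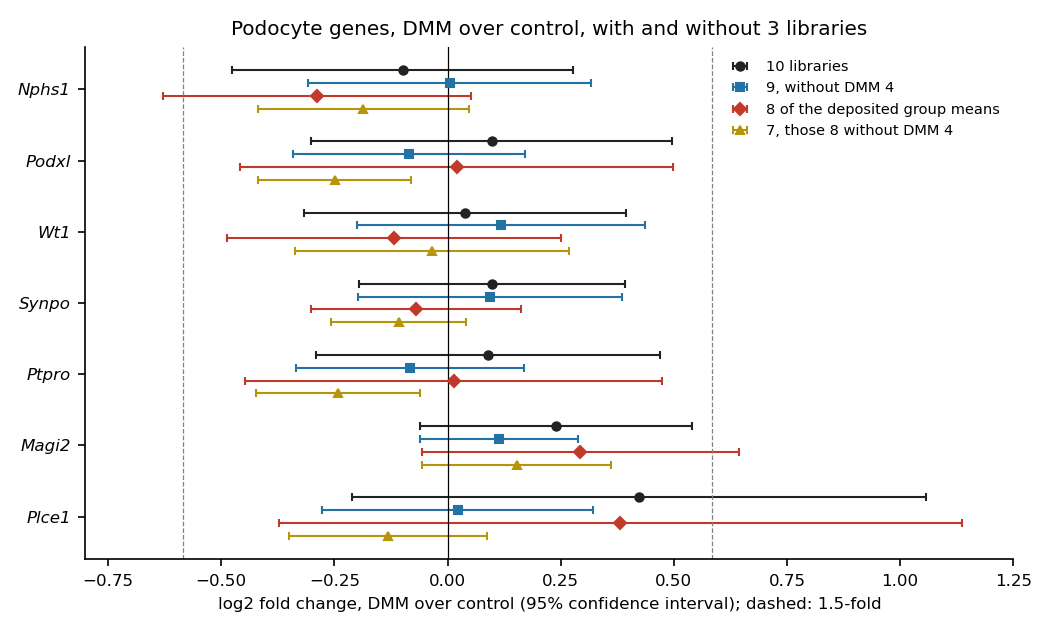
Log2 fold changes (DMM over control) of the 7 podocyte genes with 95% confidence intervals over 10, 9, 8 and 7 libraries, with dashed lines at a fold change of 1.5 in either direction. Intervals include 0 except for Podxl and Ptpro over the 7 libraries, and Plce1 lies at 0.42 with DMM 4 and 0.022 without it among the sets that hold control 3 and DMM 1.

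Levels of different genes were compared in the FPKM values that the authors deposited, which divide counts by gene length. Podxl was the most abundant of the 7 podocyte genes at 62.4 ± 4.89 FPKM in control and 66.8 ± 19.7 FPKM in DMM kidneys (SD, n = 5). Synpo followed at 22.2 ± 2.90 and 23.8 ± 3.52 FPKM, and Ptpro came next at 6.74 ± 0.603 and 7.17 ± 2.02 FPKM. The FPKM ranges of these 3 genes over the 10 libraries did not overlap, so that Podxl was above Synpo and Synpo above Ptpro in 10 of 10 libraries. Nphs1 stood at 5.18 ± 0.535 and 4.84 ± 1.30 FPKM, Wt1 at 2.99 ± 0.561 and 3.08 ± 0.525 FPKM, Plce1 at 2.24 ± 0.416 and 3.005 ± 1.62 FPKM, and Magi2 at 1.41 ± 0.0820 and 1.66 ± 0.314 FPKM. Neighbours among these lower genes had overlapping FPKM ranges. Their order within a library still held in 10 of 10 for Ptpro over Nphs1, Nphs1 over Wt1 and Plce1 over Magi2, and in 9 of 10 for Wt1 over Plce1, where DMM 4 was the exception.

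Podocyte genes were also set against each other as ratios of CPM within a library. Podxl over Ptpro was 7.62, 7.23, 7.51, 8.30 and 7.19 in control 1 to 5 and 7.58, 7.93, 6.95, 7.71 and 7.74 in DMM 1 to 5. This ratio was the steadiest of the 21 among the 7 genes without DMM 4, with a highest value 1.19 times the lowest, and DMM 4 fell inside the range of the others. Podxl over Nphs1 was 9.57, 9.42, 9.70, 12.1 and 9.47 in the control libraries and 8.88, 9.47, 9.55, 24.1 and 9.87 in the DMM libraries. Apart from control 4 and DMM 4, the libraries of both groups held Podxl and Nphs1 at nearly the same ratio. For 17 of the 21 ratios DMM 4 lay outside the range of the other 9 libraries, above it for 10 and below it for 7. Group values overlapped for all 21 ratios over 10 libraries. Without DMM 4 they were apart for 1 of 21, Podxl over Synpo, singled out after its values were seen, with 1.55, 1.54, 1.84, 1.70 and 1.54 in the control libraries against 1.43, 1.48, 1.43 and 1.39 in DMM 1, 2, 3 and 5 and 2.35 in DMM 4.

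The spread between mice differed from gene to gene. Among control libraries the coefficient of variation of CPM was 5.71% for Magi2, 7.75% for Podxl and 8.90% for Ptpro, and it reached 18.6% for Plce1 and 18.7% for Wt1. In the DMM group it was 54.5% for Plce1 with DMM 4 and 8.67% without it. Without DMM 4 it was 22.3% for Nphs1, 17.6% for Podxl, 17.1% for Synpo and 16.9% for Ptpro, and 12.1% for Wt1 and 6.21% for Magi2. Control values of Nphs1 and Synpo were 10.3% and 13%. Summed over the 7 podocyte genes, CPM were 699, 782, 602, 727 and 734 in control 1 to 5 and 868, 697, 630.4, 1004 and 620.1 in DMM 1 to 5. DMM 4 and DMM 1 had the highest sums, and control 3, DMM 5 and DMM 3 had the lowest, so that the sums of the groups overlapped.

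The podocyte genes were split in DMM 4. Against the mean of the other 9 libraries, log2 CPM in DMM 4 differed by 1.40 for Plce1, 0.71 for Podxl, 0.67 for Ptpro and 0.60 for Magi2. The difference was 0.090 for Synpo, -0.37 for Wt1 and -0.60 for Nphs1. The longest annotated transcript of Plce1 had the lowest GC content of the 7, 47.7%, and the greatest length, 9439 bases. That of Nphs1 had a GC content of 56.4% and 4608 bases, and that of Wt1 53.7% and 3090 bases, the shortest. The highest GC content was that of Synpo, 58.1%. Spearman coefficients of the difference in DMM 4 were taken across 60 tested genes, these 7 and the wider podocyte and basement membrane lists. They were -0.529 with GC content and 0.517 with length, and across all tested genes -0.49 and 0.45. These are coefficients across genes, which are not independent replicates.

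A loess correction of each library for transcript GC content and length, chosen after seeing the data, narrowed the differences in DMM 4 to 0.52 for Plce1, 0.55 for Podxl, 0.45 for Ptpro, 0.20 for Magi2, 0.016 for Wt1 and -0.36 for Nphs1, while that of Synpo widened to 0.34. With this correction the log2 fold change of Plce1 between the groups was 0.16 (edgeR adjusted p = 0.612), and edgeR called 0 of all tested genes, the 7 included. Why DMM 4 differed was not tested.

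**Figure D3:**
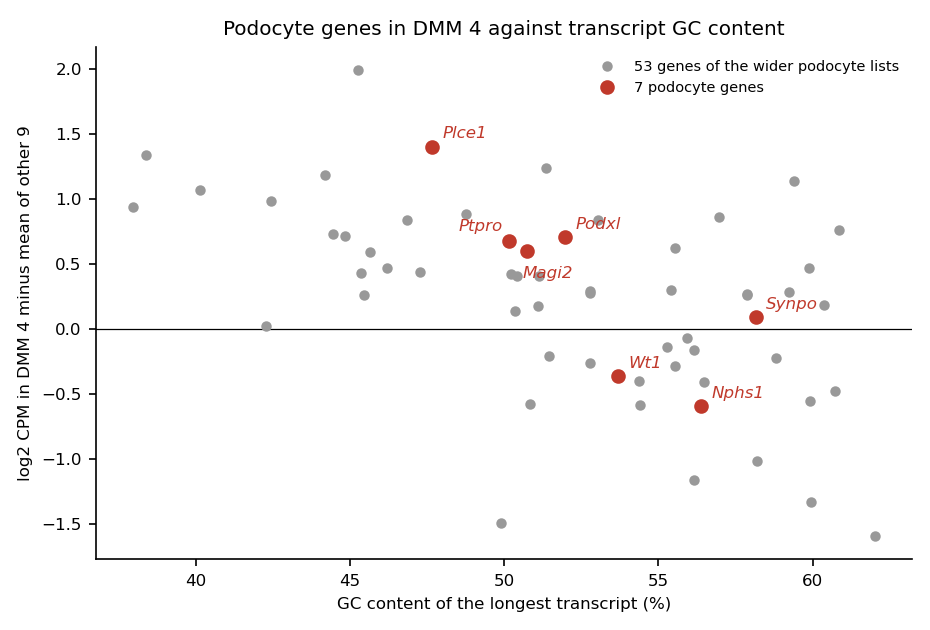
Difference in log2 CPM between DMM 4 and the mean of the other 9 libraries (vertical axis) against the GC content of each gene's longest transcript in percent (horizontal axis). The 7 podocyte genes are in red and 53 genes of the wider podocyte and basement membrane lists in grey. Plce1 lies highest of the 7, at a GC content of 47.7%, and Nphs1 lowest, at 56.4%.

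The same comparison was made for 54 further genes of podocytes and their basement membrane, in 5 lists, of which 53 were tested and Kirrel2 was not. Over 10 libraries edgeR called 0 of 53 and DESeq2 0, and at an unadjusted p under 0.05, 2 were higher and 2 were lower in DMM kidneys, together 7.55%, beside 10.9% of all tested genes. Their median log2 fold change was 0.060, or -0.020 without DMM 4, with 31 above and 22 below 0, and 51 of 53 differed by less than 0.5 on the log2 scale. Over the 8 libraries the median was -0.013 and edgeR called 1 of 53, which is 1.89%, beside the 6.3% of all tested genes. Over the 7 libraries the median was -0.11 and edgeR called 3 of 53, or 5.66%, beside 14.3% of all tested genes. The 3 were Agrn, Tcf21 and the calcium channel gene Trpc6 of the slit diaphragm list (-0.27 over 10 libraries, edgeR adjusted p = 0.785, and -1.01 over the 7, edgeR adjusted p = 0.0348). Without a fold change minimum, 20 of 53 passed an adjusted p under 0.05 there, or 37.7%, beside 28.1%. Medians with each library left out in turn ran from -0.021 (without DMM 4) to 0.20 (without DMM 3) for the slit diaphragm and from 0.0036 (without DMM 4) to 0.16 (without control 2) for the cytoskeleton. They ran from -0.062 (without DMM 4) to 0.071 (without DMM 2) for regulators, from 0.054 (without DMM 4) to 0.15 (without DMM 2) for surface proteins and from -0.10 (without DMM 4) to 0.059 (without DMM 2) for the basement membrane. DMM 4 was the highest library for 27 of these 53 genes and the lowest for 13.

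The slit diaphragm list, with 7 of 8 genes tested, had a median log2 fold change of 0.14 over 10 libraries, -0.021 without DMM 4, -0.015 over the 8 and -0.18 over the 7. Cd2ap, an adaptor that links nephrin to actin, and the giant cadherin Fat1, the most abundant gene of the list, had log2 fold changes of 0.41 and 0.33 (edgeR adjusted p = 0.552 and 0.610). Without DMM 4 these were 0.034 and -0.020, since Cd2ap stood at 752 CPM and Fat1 at 1285 CPM in DMM 4, above all other libraries. Kirrel, a partner of nephrin in the slit diaphragm, had a log2 fold change of -0.14 (edgeR adjusted p = 0.729), -0.23 without DMM 4 and -0.44 over the 7 libraries (edgeR adjusted p = 0.00293), below a fold change of 1.5 and so not called.

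The 13 genes of the foot process cytoskeleton had a median log2 fold change of 0.16, 0.0036 without DMM 4, 0.083 over the 8 libraries and -0.10 over the 7. Clic5, which links ezrin and podocalyxin to actin, stood at 91.8, 96.1, 109, 85.8 and 106 CPM in control 1 to 5 and at 103, 107, 122, 155 and 112 CPM in DMM 1 to 5. DMM 3, 4 and 5 were above every control library, and the log2 fold change was 0.29 (unadjusted p = 0.0449, edgeR adjusted p = 0.449). Without DMM 4 it was 0.18 (unadjusted p = 0.0544, edgeR adjusted p = 0.299), and over the 7 libraries 0.26 (edgeR adjusted p = 0.0422). The cross-linker Actn4, the membrane linker Ezr and the myosin Myh9, the most abundant of the 13, had log2 fold changes of 0.16, 0.16 and 0.20 (edgeR adjusted p = 0.546, 0.593 and 0.691). Without DMM 4, in which Myh9 stood at 2600 CPM, above all other libraries, these were 0.11, 0.24 and -0.018. Over 10 libraries 8 of the 13 were above 0 and 5 below 0. Clic5 was 1 of 5 genes of the 13 with an edgeR adjusted p under 0.05 over the 7, beside 28.1% of all tested genes. Of the others, Arhgap24 had 0.40 there (edgeR adjusted p = 0.0117), while Nes, Inf2 and Myo1e had -0.49, -0.44 and -0.23 (edgeR adjusted p = 0.00081, 0.00616 and 0.0302).

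Among 8 podocyte regulators the median log2 fold change was 0.013, -0.062 without DMM 4, -0.087 over the 8 libraries and -0.29 over the 7. Tcf21, a basic helix-loop-helix factor of podocytes that interstitial fibroblasts also make, stood at 98.7, 91.5, 87.8, 101 and 93.9 CPM in control 1 to 5 and at 95.1, 77.0, 43.0, 28.5 and 60.9 CPM in DMM 1 to 5. The control libraries lay close together, DMM 2 to 5 lay below all of them, and DMM 1 lay inside their range. Tcf21 had a log2 fold change of -0.63 (SE 0.27, unadjusted p = 0.0356, edgeR adjusted p = 0.430) over 10 libraries, -0.45 without DMM 4 (edgeR adjusted p = 0.277) and -0.88 over the 8 (edgeR adjusted p = 0.0849). It was -0.68 over the 7 libraries, where Tcf21 was called (edgeR adjusted p = 0.0138). The regulators Dach1 and Foxd1 had log2 fold changes of 0.22 and -0.33 (edgeR adjusted p = 0.595 and 0.635), and 0.048 and -0.24 without DMM 4.

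Among 11 podocyte surface and secreted proteins the median was 0.11, or 0.054 without DMM 4, 0.15 over the 8 libraries, 0.020 over the 7, 0.019 when scaled by library size alone and 0.050 with the loess correction. Mme, the peptidase neprilysin, which proximal tubule brush border also carries, stood at 244, 209.9, 254, 194 and 216 CPM in control 1 to 5 and at 216, 262, 278, 461 and 316 CPM in DMM 1 to 5, with a log2 fold change of 0.45 (unadjusted p = 0.0338, edgeR adjusted p = 0.429). DMM 2 to 5 were above every control library and DMM 1 was not. Without DMM 4 the value of Mme was 0.26 (unadjusted p = 0.0515, edgeR adjusted p = 0.296), and over the 7 libraries 0.40 (edgeR adjusted p = 0.0118). The guidance receptor Robo2 and the membrane protein Thsd7a had log2 fold changes of 0.31 and 0.34 (edgeR adjusted p = 0.563 and 0.575). Without DMM 4 these were 0.062 and 0.025. Of the 11 genes, 6 were above 0 and 5 below 0 over 10 libraries.

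Among 14 genes of the glomerular basement membrane and its receptors the median was 0.0089, -0.10 without DMM 4, -0.018 over the 8 libraries and -0.15 over the 7. Agrn, the heparan sulfate proteoglycan agrin, which tubular basement membranes also contain, stood at 1253, 896, 909, 1032 and 1054 CPM in control 1 to 5 and at 1015, 622, 698, 659 and 609 CPM in DMM 1 to 5. DMM 2 to 5 were below every control library, and DMM 1 was inside the control range. Agrn had a log2 fold change of -0.51 (SE 0.17, unadjusted p = 0.0104, edgeR adjusted p = 0.385) over 10 libraries and -0.48 without DMM 4 (edgeR adjusted p = 0.257). It was -0.71 over the 8 (edgeR adjusted p = 0.0162) and -0.72 over the 7 (edgeR adjusted p = 0.00210), and was called in both. The collagen chain Col4a5, the linker Nid1 and the integrin chain Itgb1, the gene of highest CPM in the list, had log2 fold changes of -0.20, -0.19 and 0.062 (edgeR adjusted p = 0.526, 0.595 and 0.902). Without DMM 4 these were -0.18, -0.25 and -0.13.

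Other cells that share podocyte genes or the glomerulus were looked at beside them. The 9 glomerular endothelial genes, of interest because endothelium also makes Podxl, had a median log2 fold change of 0.047, 0.032 over the 8 and -0.064 over the 7, and 0 calls by edgeR over 10 libraries, with 0 at an unadjusted p under 0.05 and 0 by DESeq2. With each library left out in turn the median ran from -0.027 (without DMM 4) to 0.13 (without control 4). Their summed CPM were 848, 1056, 945, 1185 and 965 in control 1 to 5 and 1097, 894, 922, 1241 and 925 in DMM 1 to 5, highest in DMM 4 and next in control 4. Plat was the most abundant, with a log2 fold change of -0.25, and Ehd3 and Flt1 had 0.20 and 0.46 (edgeR adjusted p = 0.545, 0.507 and 0.524). Without DMM 4, where Flt1 stood at 246 CPM, above all other libraries, Plat, Ehd3 and Flt1 had -0.21, 0.16 and 0.12. The 7 mesothelial genes, of interest because mesothelium makes Wt1 and Podxl, summed to 186, 262, 195, 291 and 240.4 CPM in control 1 to 5 and 250.2, 171, 220.3, 188 and 265 CPM in DMM 1 to 5. Of these, Krt19 was the most abundant, and Lrrn4 and Muc16 had at most 3 counts in any library. The median log2 fold change of the 5 tested was -0.45 (Msln -0.69, Gpm6a 0.62, Krt19 -0.45), and -0.28 without DMM 4 (Msln -0.70, Gpm6a 0.45, Krt19 -0.28), -0.39 over the 8 libraries and -0.14 over the 7. When each library was left out in turn it ran from -0.54 (without DMM 5) to -0.28 (without DMM 4). Over 10 libraries edgeR and DESeq2 called 0 of these 5, and 2 had an unadjusted p under 0.05, beside 10.9% of all tested genes. Over the 8 libraries edgeR called Gpm6a (0.95, edgeR adjusted p = 0.0109), beside 6.3% of all tested genes, and over the 7, beside 14.3%, it called Msln, Gpm6a and Krt19 (edgeR adjusted p = 0.0230, 0.000901 and 0.0220). The part of these cells in the Podxl and Wt1 values was not tested.

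The 7 mesangial genes had a median log2 fold change of -0.13, with -0.63 for Serpine2, -0.21 for Fhl2, 0.29 for Itga8 and 0.066 for Pdgfrb. Without DMM 4 these were -0.11, -0.56, -0.11, 0.0097 and -0.028. The mesangial median was -0.15 over the 8 libraries and -0.22 over the 7, and ran from -0.17 (without control 4) to -0.060 (without control 3) with each library left out. The 8 parietal epithelial genes had 0.084, with 0.48 for Akap12, -0.38 for Pax2, 0.23 for Pax8 and -0.011 for Krt8, and without DMM 4 0.0082, 0.46, -0.25, 0.31 and 0.042. By edgeR 0 of either list were called over 10 libraries and by DESeq2 0, with 1 mesangial gene and 2 parietal genes at an unadjusted p under 0.05, beside 10.9% of all tested genes. By edgeR over the 7 libraries, the calls were 0 mesangial, 1 parietal and 0 endothelial genes, beside 14.3% of all tested genes. The parietal median was -0.025 over the 8 and -0.080 over the 7, and ran from 0.0082 (without DMM 4) to 0.13 (without DMM 2) with each library left out.

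Lists of tubule, stroma and immune cells were looked at as well. Over 10 libraries medians of log2 fold changes were 0.72 for 12 proximal tubule genes and 0.47 for 10 tested genes of the loop, distal tubule and collecting duct, with 12 of 12 and 10 of 10 above 0. They were -0.61 for 11 immune genes, -0.48 for 10 fibroblast and myofibroblast genes and 0.16 for 6 tubular injury genes. When each library was left out in turn, the medians ran from 0.081 (without control 3) to 0.30 (without control 5) for tubular injury and from -0.64 (without DMM 1) to -0.50 (without DMM 3) for immune genes. The tubular injury median was 0.076 over the 8 libraries. The proximal tubule median ran from 0.50 (without control 4) to 1.32 (without control 3) with each library left out. It was 1.52 over the 8 libraries and 1.56 over the 7. That of the later segments ran from 0.34 (without DMM 3) to 0.80 (without control 3). It was 0.88 over the 8 and 1.002 over the 7. The fibroblast median was -0.24 without control 4, -0.83 over the 8 and -1.09 over the 7. Over 10 libraries edgeR and DESeq2 called 0 genes of these 5 lists, and 5 tubular, 6 immune and 0 fibroblast or injury genes had an unadjusted p under 0.05, beside 10.9% of all tested genes. Over the 8 libraries edgeR called 13 of their 49 tested genes, beside 6.3%, and over the 7 it called 30, beside 14.3%. Summed CPM of the proximal tubule list were 4514, 4582, 11210, 1882 and 3492 in control 1 to 5 and 3463, 9089.7, 8140.3, 6788 and 11550 in DMM 1 to 5. Control 3 lay with the DMM libraries and DMM 1 with the control libraries there. How the share of tubule, immune and stromal RNA enters the CPM of podocyte genes was not tested.

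Named from these lists by the same rule were Cubn, Slc4a4, Lrp2 and Kap for the proximal tubule, with log2 fold changes of 1.18, 0.74, 1.24 and 0.23, and without DMM 4 of 0.90, 0.54, 0.82 and 0.42. Kcnj1, Atp6v1g3, Slc12a1 and Umod of later segments had 0.61, 0.37, 0.94 and 0.36, and 0.53, 0.45, 0.95 and 0.57 without DMM 4. The injury genes Spp1, Krt20 and Havcr1 had 0.30, 0.36 and 0.18, and 0.27, 0.43 and 0.070 without DMM 4. Of the 6 injury genes 5 were above 0, and the 1 below 0 was Vcam1, with -0.16, or -0.42 without DMM 4. Over the 7 libraries Vcam1 had -0.90 (edgeR adjusted p = 0.00951) and was the 1 call of that list. Lum, Col1a2, Postn and Col3a1 of fibroblasts had -1.10, -0.61, -0.86 and -0.57, and Cd4, Cd68, Adgre1 and Csf1r of immune cells had -0.96, -0.72, -0.61 and -0.27. Without DMM 4 these 8 were -0.89, -0.58, -0.73, -0.68, -0.93, -0.65, -0.75 and -0.28. With the 8 libraries, Cubn, Slc4a4, Lrp2 and Kap had 1.73, 1.10, 1.97 and 0.98 (edgeR adjusted p = 0.0113, 0.0180, 0.0138 and 0.278), and Kcnj1, Atp6v1g3, Slc12a1 and Umod had 0.92, 0.32, 1.53 and 0.62 (edgeR adjusted p = 0.00928, 0.305, 0.0206 and 0.389). The fibroblast genes had -1.80, -1.11, -1.78 and -1.01 there (edgeR adjusted p = 0.0477, 0.0207, 0.00683 and 0.148), and the immune genes -1.19, -0.97, -0.65 and -0.37 (edgeR adjusted p = 0.0271, 0.0108, 0.0959 and 0.0666).

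Tested genes whose log2 CPM across the 10 libraries were most like the mean of the 7 podocyte genes, by Pearson's r, included Soga1 (0.948), Rasd2 (0.947), Sorcs1 (0.936), Tbc1d24 (0.932), Fam217b (0.929), Dph3 (0.928), Mmp24 (0.925), Vcl (0.922) and Plec (0.920). They are 9 of the 10 genes of highest r among all tested genes, and since they were picked for r, no p is given. None of the 10 was in any of the lists. Of the 53 genes of the wider podocyte and basement membrane lists, Myh9 was the most similar, with r of 0.876 at rank 45. Vegfa was the least similar of them, with r of -0.794 at rank 16236. Among the 7 podocyte genes themselves, 13 of 21 pairs had r above 0 over 10 libraries, and 16 did without DMM 4. Over the 9 libraries without DMM 4, the 9 named genes had r between 0.864 and 0.942, with Rasd2 still among the 10 of highest r, and Myh9 had 0.879, again at rank 45.

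Reads of overlapping genes can be counted on either, and whether the counting took the strand into account was not stated in the sources used here. Of 12 annotated genes that overlap Nphs1, Ptpro, Magi2 or Plce1, only Rps12-ps4 was tested, a pseudogene of a ribosomal protein at chr7:30484701-30485097 on the strand opposite to Nphs1. It had 29 to 58 counts in a library and a log2 fold change of 0.11 (edgeR adjusted p = 0.861). The others had at most 3 counts in any library, the antisense transcript Nphs1os included. The values of Nphs1 may hold a few reads of Rps12-ps4, and the reverse.

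Promoter windows in RefSeq (GRCm38.p6), from 250 bases before to 50 bases after a start site, were found for Nphs1, Ptpro, Magi2 and Plce1, which are 4 of the 7, with 2 windows for Magi2. The windows of Nphs1 and Plce1 and 1 of Magi2 lie inside the gene as annotated in the deposited table, at a start site other than its first base. They were searched on both strands for short motifs of podocyte regulators, because Wt1 is itself among the 7 genes. GTGGGAG, the core of a WT1 motif, occurred in 9.73% of all 32851 windows and in that of Ptpro alone among the 5, and the longer GCGTGGGAG in 0.472% and in none of the 5. TAATTA, bound by LMX1B, occurred in 5.29% of all windows and in 1 of Magi2, and the E-box CAGCTG, bound by TCF21 and many other factors, in 16.3% and in the other Magi2 window.

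The window of Ptpro is given as the single one with the WT1 core and that of Nphs1, inside the annotated gene and without any motif named here, as that of nephrin, on chr6:137252049-137252348 (plus strand, GC content 54.7%) and chr7:30459808-30460107 (plus strand, GC content 49.7%), beside a median GC content of 52.7% over all windows. Capitals mark GTGGGAG, and a match is a description of the letters only.
Ptpro: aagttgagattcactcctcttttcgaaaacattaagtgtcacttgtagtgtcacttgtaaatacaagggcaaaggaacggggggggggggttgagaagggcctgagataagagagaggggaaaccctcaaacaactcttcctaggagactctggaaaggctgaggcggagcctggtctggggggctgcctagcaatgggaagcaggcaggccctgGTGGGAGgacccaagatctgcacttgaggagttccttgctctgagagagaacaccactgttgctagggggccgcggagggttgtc
Nphs1: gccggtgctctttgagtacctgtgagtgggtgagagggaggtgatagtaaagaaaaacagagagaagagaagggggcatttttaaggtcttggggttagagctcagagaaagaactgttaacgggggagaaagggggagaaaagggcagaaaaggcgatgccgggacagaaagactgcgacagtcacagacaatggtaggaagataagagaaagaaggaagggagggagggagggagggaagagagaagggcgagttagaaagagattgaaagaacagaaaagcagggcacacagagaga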

How the data were processed

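Total RNA of whole kidneys was sequenced by the authors with an mRNA library kit, 1 library per mouse. The authors deposited raw counts of reads per gene, made from an mm10 alignment for which the submitters' processing notes name HISAT2 2.0.5. The counting tool, annotation release and strand setting were not given in the sources used here. FPKM values, deposited by the authors beside the counts, divide by gene length and library size and were used only to compare levels between genes. The deposited group means are a signal in counts divided by size factors and served to find which libraries the authors' means rest on. Gene length in base pairs was deposited too. Columns of the authors' own comparison, which hold its fold change and p-values, were not used.

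Counts were filtered by filterByExpr, scaled by TMM and tested with edgeR 4.0.16 (glmQLFit and glmQLFTest) in R 4.3.3 on control against DMM libraries. P-values were adjusted by Benjamini-Hochberg over all tested genes. CPM are scaled by TMM, log2 CPM carry a prior count of 2, and standard errors are the log2 fold change over the root of F. DESeq2 1.42.0 was the other tool. Further alternatives were other scalings and filters, no fold change minimum, a replicate block, leaving out each library in turn, the 8 libraries of the deposited means, and, chosen after seeing the data, the 7 libraries and a loess correction for the GC content and length of each gene's longest transcript in GENCODE M21. On simulated counts with 200 genes changed 3-fold, edgeR called 163 of them with the right sign and 3 others.

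The 7 podocyte genes and the 14 other lists were chosen with earlier results of these data known. Genes named in the text were the 7 podocyte genes, the 3 genes of smallest p and the gene of highest mean CPM in each other list, the 10 genes of highest r with the mean of the 7, and tested genes that overlap them. Of these, 1 gene is not reported here, nor is 1 of 5 motifs searched. Kirrel2, Trpc6, Vcam1, Lrrn4, Muc16, Nphs1os, Nes, Inf2, Arhgap24, Myo1e and Vegfa were named outside this rule, after their values were seen.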

Additional observations from a re-analysis of the deposited data

Results flagged for a closer look

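In 2 of the 16 groups of 5 values examined, the 7 podocyte genes and their sum in control and in DMM kidneys, a single library lay far from the other 4. Plce1 stood at 95.4 CPM in DMM 4 while the nearest DMM library, DMM 1, stood at 41.4 CPM, a gap of 0.886 of the range of the group. Magi2 stood at 25.3 CPM in DMM 4 while the nearest, DMM 2, stood at 18.3 CPM, a gap of 0.749 of the range. Both gaps are above Dixon's 95% critical value for 5 samples, 0.71. Chance flags about 1 in 20 groups, and both values come from the same library, whose other podocyte genes stayed below that value. The cause was not tested.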

How the results depend on the processing

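Under each of 19 alternatives, 0 of the 7 podocyte genes were called with the fold change rule, and with no fold change minimum 0 passed over all 10 libraries. Of 133 log2 fold changes of single podocyte genes under these alternatives, 16 changed sign, and adjusted p lay between 0.0357 and 0.991. The cause of these changes of sign was not tested. Leaving out each library in turn gave log2 fold changes of -0.26 to 0.0051 for Nphs1, -0.085 to 0.18 for Podxl, -0.055 to 0.14 for Wt1, 0.0059 to 0.16 for Synpo, -0.084 to 0.18 for Ptpro, 0.11 to 0.29 for Magi2 and 0.022 to 0.54 for Plce1, and 0 to 50 genes called higher and 0 to 436 called lower in all, the highest counts without DMM 1. Wt1 was below 0 without DMM 1, without control 3 (-0.025) and without control 4 (-0.017). Over the 8 libraries of the deposited means Wt1 had -0.12 and Synpo -0.070, with 452 genes called higher and 590 lower, against 0 and 0 over 10 libraries. With library size alone Podxl had -0.0065, Wt1 -0.034 and Ptpro -0.013, while the median of all tested genes was -0.064. Over the 7 libraries Podxl had -0.25, Wt1 -0.035, Synpo -0.11, Ptpro -0.24 and Plce1 -0.13, the median of the 7 genes was -0.13, and 1129 genes were called higher and 1281 lower. DESeq2 called 12 genes higher and 33 lower. Of 266 medians of the other lists, 255 moved by less than 1 SD between replicates. Whole kidneys of 5 mice a group were sequenced, and podocytes are few among their cells. The intervals of the 7 genes bound ratios of TMM-scaled CPM, not an amount of RNA in the organ or in the single podocyte.

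With the replicate block the median of the podocyte genes was 0.054 and 0 genes were called higher or lower. The libraries share only a number: correlations between same-numbered libraries' deviations were -0.060, 0.079, 0.341, 0.124 and -0.223. Only control 2, DMM 3 and DMM 4 correlated best with the library of their own number in the other group.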
